A study of Mus musculus with 2 samples.

Results

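The Nduf genes are named after the NADH:ubiquinone oxidoreductase, respiratory complex I, and the set here holds every gene whose symbol begins with Nduf. In the 2 libraries 47 of 32285 listed genes met that rule. They fell into 37 nuclear-encoded subunits of complex I, 8 assembly factors (Ndufaf1 to Ndufaf8) and a pair that carries the name without being part of the complex, Ndufa4 and its paralog Ndufa4l2. The subunits comprised 13 genes of the Ndufa series, 11 of the Ndufb series, 2 of the Ndufc series, 8 of the Ndufs series and 3 of the Ndufv series, of which 7 encode core subunits. The rule for the members used gene symbols and no measured value, but it was chosen with earlier results of these data known.

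Complex I is the entry point of the mitochondrial respiratory chain: it oxidises NADH, passes the electrons to ubiquinone and pumps protons across the inner membrane. Its matrix arm holds an N module that binds NADH and a Q module that reduces ubiquinone, and its membrane arm holds the proton pumps, which are encoded by the mitochondrial genome. Core subunits carry the redox chemistry, accessory subunits surround and stabilise them, and assembly factors help to build the complex without staying in it. Regulatory T cells (Tregs), the Foxp3-expressing T cells that restrain immune responses, are known to rely on oxidative phosphorylation, and activation of T cells is known to be accompanied by mitochondrial growth.

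Tregs were sorted as YFP+7AAD- cells from the spleens of C57BL/6J mice at 7 days of age and profiled by droplet single-cell RNA sequencing, which counts transcripts as unique molecular identifiers (UMIs). There was 1 library of WT mice, which carried the Foxp3-Cre allele alone, and 1 library of KO mice, which were Zfp335fl/flFoxp3-Cre, so that Cre and YFP driven from the Foxp3 locus were present in both and the zinc finger protein Zfp335 was deleted in cells that express Foxp3. Replicates are therefore lacking, no test between genotypes was possible, and every interval given is a 95% interval for counting error only. How many mice went into a library is not stated in the sources used here.

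A barcode entered the comparison when it showed 300 or more genes and mitochondrial transcripts did not exceed 5% of its UMIs. Of 14524 barcodes in WT 8053 passed, and of 18134 in KO 13767, with medians of 5061 and 2713 UMIs. The limit on mitochondrial UMIs removed 44.6% of WT and 24.1% of KO barcodes. Of the barcodes kept, 29 sequences occurred in both libraries. Zfp335 was counted at 8.19 CPM (UMIs per 1000000 of the same library and state) in T lineage barcodes of WT and at 0.80 CPM in those of KO, from 397 and 42 UMIs. Clusters were made without the Nduf genes, and 4 of them were named by marker genes: resting-like (8 markers, Lef1 and Tcf7 among them, all raised), activated-like (5 of 8 markers raised, Nefh among the leading genes), effector-like (Klrg1, Cxcr3, S100a4 and others, all 10 raised) and S phase-like (all 11 raised, together with all 10 mitotic and all 10 effector markers). They held 2324, 458, 2371 and 652 WT barcodes and 4930, 1219, 138 and 1072 KO barcodes. T lineage markers such as Cd3e and Trac were counted in all of them, and smaller clusters carried markers of erythroid cells, neutrophils and B cells. Cluster 2, which was not named, held 182 WT and 4532 KO barcodes and had all 8 erythroid and all 8 neutrophil markers raised. It was counted among the T lineage barcodes but lies outside the comparisons of the 4 named states.

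In resting-like cells the complex I subunits were as a group slightly higher in KO than in WT. Summed over the 37 subunits they reached 6637 CPM in WT and 7350 CPM in KO, a ratio of 1.11 (1.10 to 1.12). The shift was broad and small. Of the 37 subunits 34 lay above a ratio of 1, and the interval of 28 lay wholly above 1, while no interval lay wholly below it. How many of all genes lay above 1 or had such intervals was not counted, here or for the other states. Intervals narrow with more UMIs, so that these counts depend on depth. The median log2 ratio of the subunits was 0.15, against -0.06 over all 8048 genes with at least 200 UMIs. A ratio 25% above or 20% below 1, the same distance on the log scale, was taken to mark a difference in single genes. One subunit, the accessory Ndufa9 at the junction of the arms, was higher by 25%, where 8.0% of all genes tested were, and no subunit was lower by 20%, where 21.1% were. The call of Ndufa9 was lost without the mitochondrial limit, without barcodes of top doublet score, without shared barcodes and with finer clusters.

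Ndufa9 was counted at 72.3 CPM in WT and 90.5 CPM in KO resting-like cells, a ratio of 1.252 (1.15 to 1.36). Just short of the limit followed Ndufv3, a small N module subunit, at 234 and 292 CPM, and Ndufb6, of the distal membrane arm, at 102 and 125 CPM. Their ratios were 1.2495 (1.19 to 1.31) and 1.23 (1.15 to 1.32). The other end of the range was held by Ndufs1, the largest core subunit of the N module, with 37.5 CPM in WT and 33.6 CPM in KO, a ratio of 0.894 whose interval of 0.789 to 1.01 includes 1. The membrane arm subunit Ndufa10, at 122 and 120 CPM, and the core subunit Ndufs7, at 147 and 147 CPM, were at the same level in both libraries within counting error.

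The excess in KO resting-like cells was found in every structural part of the complex. The 9 N module genes gave a summed ratio of 1.14 (1.12 to 1.16), the 5 Q module genes 1.09 (1.06 to 1.12), the 8 genes of the proximal membrane arm 1.11 (1.08 to 1.13) and the 11 genes of the distal membrane arm 1.08 (1.06 to 1.09). All of these stayed above 1 under each scaling tried. The 7 core subunits summed to 752 CPM in WT and 828 CPM in KO. Among them Ndufs8 had the highest log2 ratio, 0.23. Ndufv1 was at 0.20, Ndufv2 at 0.19 and Ndufs3 at 0.15, while Ndufs7 and Ndufs1 had no excess in KO.

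**Figure D1:**
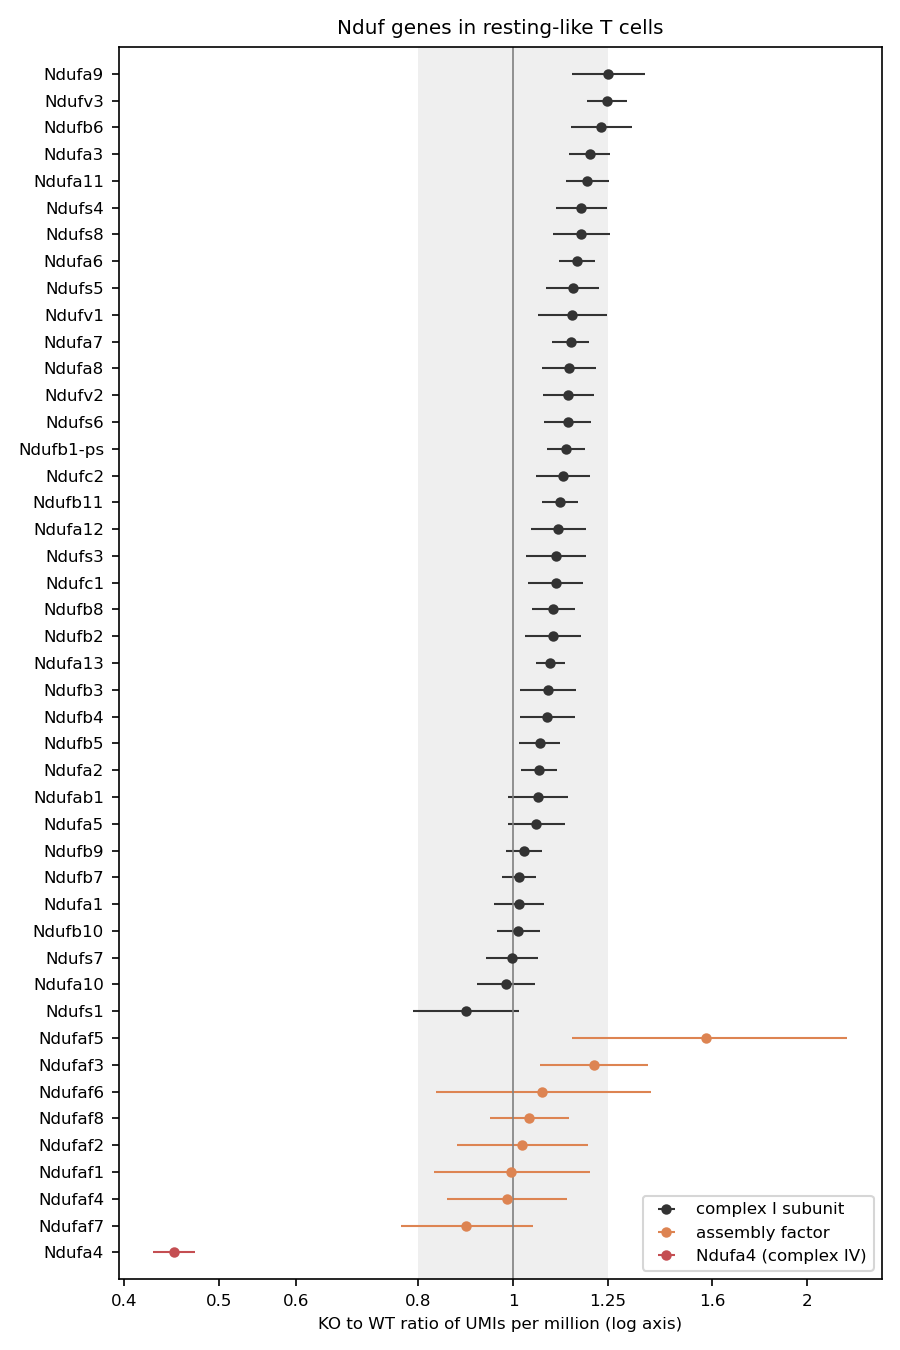
KO to WT ratio of CPM in resting-like T cells for the named Nduf genes with at least 200 UMIs, on a log axis, with 95% counting intervals as bars and the band from 20% lower to 25% higher shaded. The subunits cluster just above 1, from 0.894 for Ndufs1 to 1.252 for Ndufa9, the assembly factors scatter around 1, and Ndufa4 stands apart at 0.450.

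Whether the assembly factors shared the shift as a group was not resolved, as their interval includes 1 and overlaps that of the subunits (1.10 to 1.12). The summed level of the assembly factors was 205 CPM in WT and 216 CPM in KO resting-like cells, a ratio of 1.05 (0.998 to 1.11), which became 0.975 when every barcode was thinned to 1000 UMIs. Ndufaf5, which hydroxylates the core subunit Ndufs7, had the highest ratio of all members, 1.58 (1.15 to 2.20), but rested on 52 WT and 163 KO UMIs. It rose from 4.95 to 7.82 CPM. Ndufaf3, which acts early in assembly of the Q module, was at 33.0 and 39.9 CPM. Ndufaf7, a methyltransferase, was at 24.6 and 22.0 CPM, and Ndufaf4 and Ndufaf1 were at 28.9 and 28.4 CPM and at 17.1 and 17.0 CPM. The intervals of the last 3 include 1.

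Ndufa4 departed from all other members. It was first assigned to complex I, and is now known as a subunit of complex IV, cytochrome c oxidase, which hands electrons to oxygen. In resting-like cells it was counted at 324 CPM in WT and 146 CPM in KO, a ratio of 0.450 (0.428 to 0.473) and a log2 ratio of -1.15. Of the 46 Nduf genes with at least 200 UMIs it alone was lower by 20% in that state. The study selected Ndufa4 on these same libraries, so that its difference is described here and is not independent evidence. For Ndufa4 the study also reported lower expression in Zfp335-deficient Tregs of further mouse models, and Zfp335 bound at its promoter. It further reported that overexpression of Ndufa4 in Zfp335-deficient Tregs did not restore the lowered frequency of effector Tregs. Those data were not examined here.

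Ndufa4 was lower in KO in each of the 4 T cell states. In activated-like cells it fell from 505 CPM in WT to 173 CPM in KO, a ratio of 0.342 (0.322 to 0.364). In effector-like cells the levels were 496 and 233 CPM, a ratio of 0.470 (0.413 to 0.534), with only 244 UMIs in the 138 KO barcodes. In S phase-like cells they were 565 and 171 CPM, a ratio of 0.302 (0.287 to 0.318). The WT levels thus differed between states, resting-like below the other 3, and activated-like and effector-like had overlapping intervals. In KO the levels of activated-like and S phase-like cells overlapped, resting-like was lowest and effector-like highest. WT cells gained in Ndufa4 from the resting-like to the S phase-like state by a ratio of 1.75 (1.67 to 1.82), and the ratio in KO cells was 1.17 (1.11 to 1.24).

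Outside the T lineage the picture was mixed. Cluster 11, an unnamed cluster of 107 WT and 111 KO barcodes led by the myeloid granule genes Lyz2, Elane and Mcpt8, had Ndufa4 at 559 CPM in WT and 536 CPM in KO, a ratio of 0.958 (0.879 to 1.04). T lineage markers summed to 776 and 723 CPM in that cluster, against 7318 and 7270 CPM in resting-like cells, and Zfp335 was at 8.29 and 5.04 CPM with overlapping intervals (4.74 to 13.5 and 2.42 to 9.27). B cell-like barcodes, with only 79 UMIs of the gene in all, had 298 and 300.2 CPM. Neutrophil-like barcodes had 198 and 109 CPM, a ratio of 0.554 (0.412 to 0.736), with Zfp335 at 6.41 and 6.54 CPM from 6 and 4 UMIs. Erythroid-like barcodes had 495 and 288 CPM, with Zfp335 at 5.28 and 0.82 CPM from 14 and 2 UMIs. In the erythroid-like barcodes haemoglobin took 15.5% of WT and 30.1% of KO UMIs, the median gene was lower by 0.33 on the log2 scale, and T lineage markers summed to 966 and 1643 CPM. What part these had in the value was not tested.

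**Figure D2:**
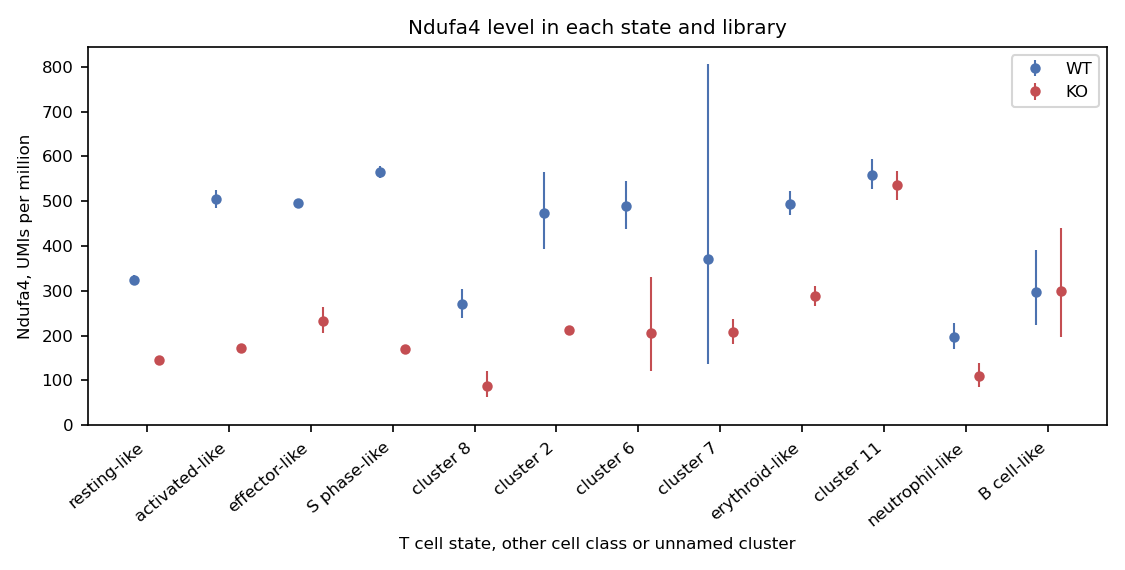
Ndufa4 in CPM in each T cell state, unnamed cluster and other cell class, for the WT and the KO library, with 95% counting intervals. The KO points lie below the WT points in the 4 named T cell states, by ratios of 0.302 to 0.470, and at the same level in cluster 11. The WT point of cluster 7 rests on 13 barcodes.

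The upstream sequence of 3 members is shown. Ndufa4 is the member lower in KO, and Ndufa6 is the member that runs against the others between states. Ndufaf4 is among the assembly factors with the largest rise in activated-like cells, in WT behind Ndufaf6 and Ndufaf2. RefSeq windows of 250 bases before and 50 after the start (GRCm38.p6) were at hand for 40 of the 47 members. The stretches are the 250 bases before the start, 5′ to 3′ on the coding strand, with matches to the searched motifs in capitals.
Ndufa4, chr6:11907451-11907700, minus strand: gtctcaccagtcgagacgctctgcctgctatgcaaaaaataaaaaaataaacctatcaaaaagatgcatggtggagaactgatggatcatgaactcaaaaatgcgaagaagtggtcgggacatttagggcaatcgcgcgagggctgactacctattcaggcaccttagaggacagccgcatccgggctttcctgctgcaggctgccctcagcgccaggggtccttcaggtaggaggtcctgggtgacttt
Ndufa6, chr15:82354292-82354541, minus strand: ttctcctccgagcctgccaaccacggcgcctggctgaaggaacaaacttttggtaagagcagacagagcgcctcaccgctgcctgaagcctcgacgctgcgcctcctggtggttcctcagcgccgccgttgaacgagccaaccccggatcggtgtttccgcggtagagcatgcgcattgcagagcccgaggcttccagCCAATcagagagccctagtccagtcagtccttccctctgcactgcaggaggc
Ndufaf4, chr4:24897833-24898082, plus strand: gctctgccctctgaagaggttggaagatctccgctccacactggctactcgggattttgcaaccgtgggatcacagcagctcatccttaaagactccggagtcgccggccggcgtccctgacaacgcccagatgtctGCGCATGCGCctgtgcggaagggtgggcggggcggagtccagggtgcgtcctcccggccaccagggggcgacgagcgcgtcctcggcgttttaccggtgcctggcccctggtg

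Motifs were searched on both strands of the whole 300-base windows. A member was counted when any of its windows matched, while the share of all windows counts each window by itself. The NRF1 motif, which reads GCGC, any base, T and GCGC, bound by a factor known to drive nuclear genes of the respiratory chain, was present in 9 of 40 members, 22.5%, and in 4.60% of all 32851 windows. These members were Ndufa5, Ndufa6, Ndufa8, Ndufa11, Ndufb4, Ndufs5, Ndufs6, Ndufaf4 and Ndufaf5. The YY1 motif AAGATGGCG was in 6 members, 15.0%, against 1.40% of all windows, and the ETS motif CCGGAAG was in 6 members, 15.0%, against 8.86%. The CCAAT box, with the letters CCAAT, was in 35.0% of members and 37.4% of all windows. The capitals in Ndufaf4 are an NRF1 match and those in Ndufa6 a CCAAT box. The NRF1 match of Ndufa6 lies in, or reaches into, the 50 bases after the start, which are not printed. The Ndufa4 window holds none of the 4 motifs. A match describes letters and is not a binding site.

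In activated-like cells the subunits were nearly level and the assembly factors lower in KO. The subunits summed to 8292 CPM in WT and 8557 CPM in KO, a ratio of 1.03 (1.02 to 1.04), with intervals wholly above 1 for 16 and wholly below 1 for 6 of 37. Ndufa6, a small accessory subunit at the foot of the matrix arm, was the single subunit higher by 25%, at 204 and 260 CPM, where 10.4% of all genes tested were. Ndufb4 and Ndufb11, both of the distal membrane arm, came next, at 169 and 197 CPM and at 283 and 328 CPM. No subunit was lower by 20%, the lowest being the core subunit Ndufs7 at 224 and 197 CPM, a ratio of 0.880 (0.818 to 0.947).

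The assembly factors of activated-like cells summed to 376 CPM in WT and 316 CPM in KO, a ratio of 0.841 (0.794 to 0.890). Of the 7 with at least 200 UMIs 4 were lower by 20%, where 20.5% of all genes were. Ndufaf6 fell from 28.9 to 19.3 CPM, a ratio of 0.667 (0.536 to 0.832), and Ndufaf1, a chaperone of the membrane arm, from 25.5 to 17.9 CPM, a ratio of 0.703 (0.558 to 0.888). Ndufaf2, which binds the late assembly intermediate, was at 71.7 and 54.5 CPM. Ndufaf4 was at 81.6 and 63.4 CPM. Ndufaf5 had under 200 UMIs. The group ratio was 0.966 when every barcode was thinned to 1000 UMIs, and 0 of those that then still reached 200 UMIs were lower by 20%. The WT barcodes of this state were deeper, with a median of 9194.5 UMIs against 7208 in KO.

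In effector-like cells the subunits summed to 8439 CPM in WT and 8160 CPM in KO, a ratio of 0.967 (0.946 to 0.988). The members were split, with 18 above and 19 below 1, intervals wholly below 1 for 4 and wholly above 1 for 1, and a median log2 ratio of -0.02, the same as the -0.02 over all genes. The KO side rests on 138 barcodes. Ndufb6 was the single subunit higher by 25%, at 148 and 207 CPM, a ratio of 1.40 (1.21 to 1.61), where 17.9% of all genes were, and no subunit was lower by 20%, where 21.9% were. Ndufa1, which belongs to the proximal membrane arm, was at 205 and 170 CPM, and Ndufa13, of the same arm, at 595 and 499 CPM, with ratios of 0.831 and 0.839 and intervals below 1. Among the assembly factors Ndufaf4 was at 24.8 and 42.1 CPM, a ratio of 1.70 (1.22 to 2.31) from 44 KO UMIs. Ndufaf6 and Ndufaf3 passed the limits in opposite directions, at 12.9 and 8.60 CPM and at 43.7 and 55.4 CPM, with intervals that include 1.

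In S phase-like cells the subunits summed to 8545 CPM in WT and 8196 CPM in KO, a ratio of 0.959 (0.950 to 0.968). Ndufb7 was the single subunit lower by 20%, at 531 and 419 CPM, a ratio of 0.790 (0.759 to 0.821), and Ndufa6 the single one higher by 25%, at 191 and 262 CPM, a ratio of 1.38 (1.30 to 1.46). Of all genes 15.0% were lower and 16.8% higher by these limits. Ndufb8, another distal membrane arm subunit, was at 367 and 300 CPM, and the assembly factor Ndufaf2 at 62.1 and 50.4 CPM. Ndufa7, of the N module, was at 242 and 286 CPM, and Ndufaf4 at 31.9 and 38.9 CPM.

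The parts of the complex differed in S phase-like cells. The 19 nuclear-encoded subunits of the membrane arm summed to a ratio of 0.920 (0.909 to 0.931), with intervals wholly below 1 for 9, and the 14 subunits of the matrix arm to 0.998 (0.982 to 1.01). Within the matrix arm the Q module was lower, at 0.941 (0.914 to 0.970) with 4 of 5 genes below 1, and the N module slightly higher, at 1.02 (1.00 to 1.04). In effector-like cells the ratios of the arms were 0.941 (0.914 to 0.968) and 0.997 (0.959 to 1.04). The matrix arm ratio of both states lay on either side of 1 depending on the scaling, between 0.959 and 1.02 in effector-like and between 0.981 and 1.01 in S phase-like cells, while the membrane arm stayed below 1 under each scaling tried. In resting-like cells the same groups were at 1.09 and 1.12.

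**Figure D3:**
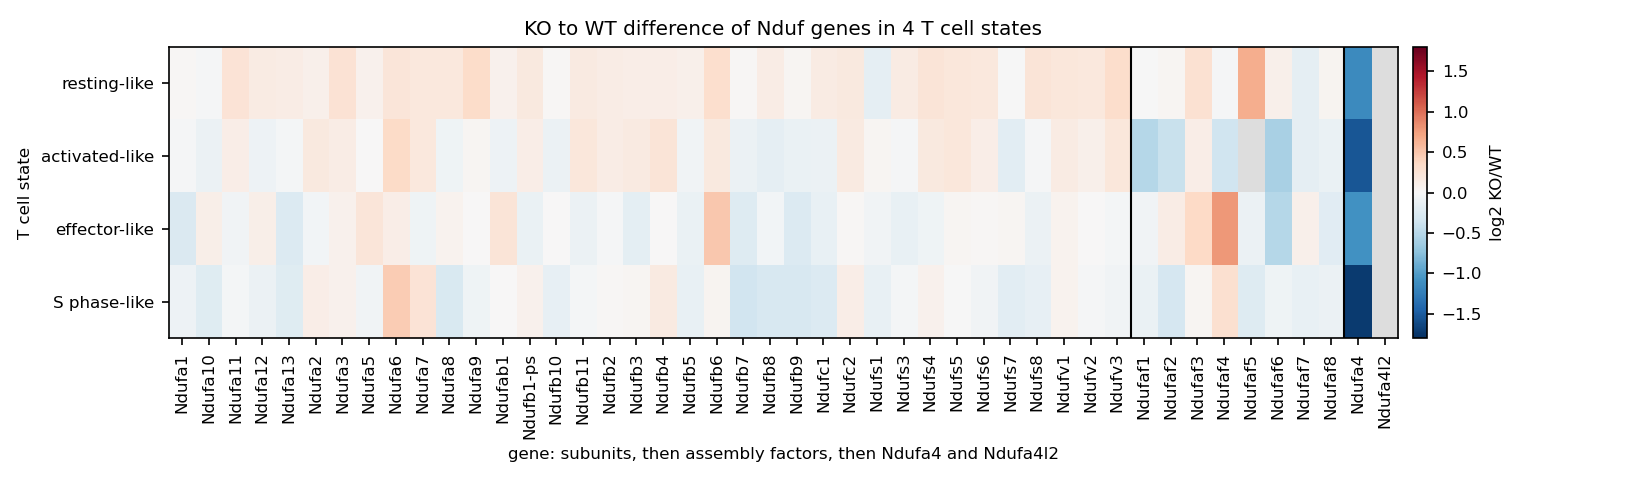
Log2 KO to WT ratio of the named Nduf genes (columns: subunits, assembly factors, then Ndufa4 and Ndufa4l2) in the 4 T cell states (rows), red for higher and blue for lower in KO. Genes with under 200 UMIs over both libraries are grey. The Ndufa4 column is blue in all 4 rows, from -1.09 in effector-like to -1.73 in S phase-like cells, and the row of resting-like cells is red for most subunits.

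Within the WT library the subunits were higher in each of the other named states than in resting-like cells. Their sum was 6637 CPM in resting-like, 8292 CPM in activated-like, 8439 CPM in effector-like and 8545 CPM in S phase-like cells. The ratios to resting-like were 1.249 (1.23 to 1.26), 1.27 (1.26 to 1.28) and 1.29 (1.27 to 1.30). These comparisons share the resting-like barcodes. Higher by 25% were 22 of 37 subunits in activated-like, where 30.9% of all genes were, 20 in effector-like, where 24.2% were, and 22 in S phase-like cells, where 30.5% were. Lower by 20% were 1, 0 and 1 subunits, where 35.1%, 23.0% and 35.1% of all genes were.

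In the KO library the same differences were smaller. The subunits summed to 7350 CPM in resting-like, 8557 CPM in activated-like, 8160 CPM in effector-like and 8196 CPM in S phase-like cells, which gave ratios of 1.16 (1.15 to 1.17), 1.11 (1.09 to 1.13) and 1.12 (1.11 to 1.12). None of these intervals overlapped that of the same state in WT, but they hold no variation between libraries. The KO ratios also share the KO resting-like barcodes. Higher by 25% were 15 of 37 subunits in activated-like, 10 in effector-like and 9 in S phase-like cells, where 25.7%, 27.0% and 26.6% of all genes were, so that the shares in effector-like and S phase-like cells of KO were near the background. In each comparison 1 subunit was lower by 20%, where 32.5%, 23.3% and 26.3% of all genes were. The KO effector-like and S phase-like sums were below the WT sums and the KO resting-like sum above it.

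The difference between states was uneven among the subunits. Ndufa12, an accessory subunit of the N module, went from 130 CPM in resting-like to 289 CPM in activated-like cells of WT, a ratio of 2.22 (2.06 to 2.40), and from 145 to 270 CPM in KO, a ratio of 1.87 (1.77 to 1.97). Ndufab1, the mitochondrial acyl carrier protein, which is present in complex I and also serves fatty acid synthesis in the mitochondrion, went from 118 to 197 CPM between resting-like and S phase-like cells of KO, a ratio of 1.67 (1.57 to 1.77). Ndufb8 had the highest ratio among the subunits in effector-like cells of WT, 1.66 (1.58 to 1.74), from 205 to 340 CPM, and Ndufb6 in those of KO, 1.65 (1.43 to 1.90), from 125 to 207 CPM. Ndufa9 was next to Ndufb8 in WT, at 72.3 and 112 CPM. Of the core subunits all 7 were above 1 in each of the 6 comparisons. Ndufs1 was the lowest of them in all 3 WT comparisons, with log2 ratios of 0.01, 0.00 and 0.03, and its ratio in effector-like cells went below 1 under other scalings, to 0.785 with thinning. Ndufs7 was the highest in activated-like cells of both libraries, with 0.61 in WT and 0.43 in KO.

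Ndufa6 ran against the other subunits. In WT it was at 287 CPM in resting-like cells and at 204, 239 and 191 CPM in activated-like, effector-like and S phase-like cells, the lowest log2 ratio of all members with at least 200 UMIs in each comparison, at -0.49, -0.26 and -0.59. In KO it was at 334 CPM in resting-like cells and at 260, 261 and 262 CPM in the same states, again the lowest member each time, at -0.36, -0.35 and -0.35. The KO level was above the WT level in resting-like cells by a ratio of 1.16 (1.11 to 1.21), and in effector-like cells the ratio of 1.09 had an interval that includes 1 (0.961 to 1.23). Ndufv3, Ndufa7 and Ndufa13 came next among the low members. Ndufv3 was at 292 CPM in resting-like and 238 CPM in S phase-like cells of KO, and Ndufa13, also known as GRIM-19, at 507 and 416 CPM. Ndufa7 was at 269 CPM in resting-like and 242 CPM in S phase-like cells of WT, and at 309 CPM in resting-like and 273 CPM in effector-like cells of KO, where Ndufb1-ps was at 313 and 278 CPM.

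The highest ratios of the activated-like state belonged to assembly factors. Summed, they went from 205 CPM in resting-like to 376 CPM in activated-like cells of WT, a ratio of 1.83 (1.72 to 1.95), and from 216 to 316 CPM in KO, a ratio of 1.46 (1.40 to 1.53). Ndufaf6 rose from 8.95 to 28.9 CPM in WT, a ratio of 3.23 (2.48 to 4.24), and from 9.59 to 19.3 CPM in KO, a ratio of 2.01 (1.65 to 2.46). Ndufaf2 rose from 23.9 to 71.7 CPM in WT and from 24.4 to 54.5 CPM in KO. Ndufaf4 rose from 28.9 to 81.6 CPM and from 28.4 to 63.4 CPM. In resting-like cells these 3 were level between the libraries, and in activated-like cells all 3 were lower in KO by 20% or more. Ndufaf3 did not take part, at 33.0 and 30.7 CPM in WT and at 39.9 and 33.3 CPM in KO.

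In the other states Ndufaf2 led the assembly factors, except in effector-like cells of WT, where Ndufaf5 did. Ndufaf5 had under 200 UMIs in the comparisons of WT activated-like, WT S phase-like and KO effector-like with resting-like cells. In effector-like cells of WT the sum was 258 CPM, a ratio of 1.26 (1.20 to 1.32) to resting-like cells, with Ndufaf5 highest at 4.95 and 10.8 CPM and Ndufaf4 lowest at 28.9 and 24.8 CPM. In S phase-like cells of WT it was 297 CPM, a ratio of 1.45 (1.37 to 1.53), with Ndufaf2 at 62.1 CPM and Ndufaf6 at 17.6 CPM, while Ndufaf1 stayed at 17.1 and 16.5 CPM. In KO the ratios were 1.27 (1.12 to 1.43) in effector-like cells, where Ndufaf2 was at 39.2 CPM from 41 UMIs and Ndufaf7 at 34.4 CPM from 36 UMIs, and 1.30 (1.24 to 1.36) in S phase-like cells, where Ndufaf2 was at 50.4 CPM and Ndufaf6 at 16.7 CPM.

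**Figure D4:**
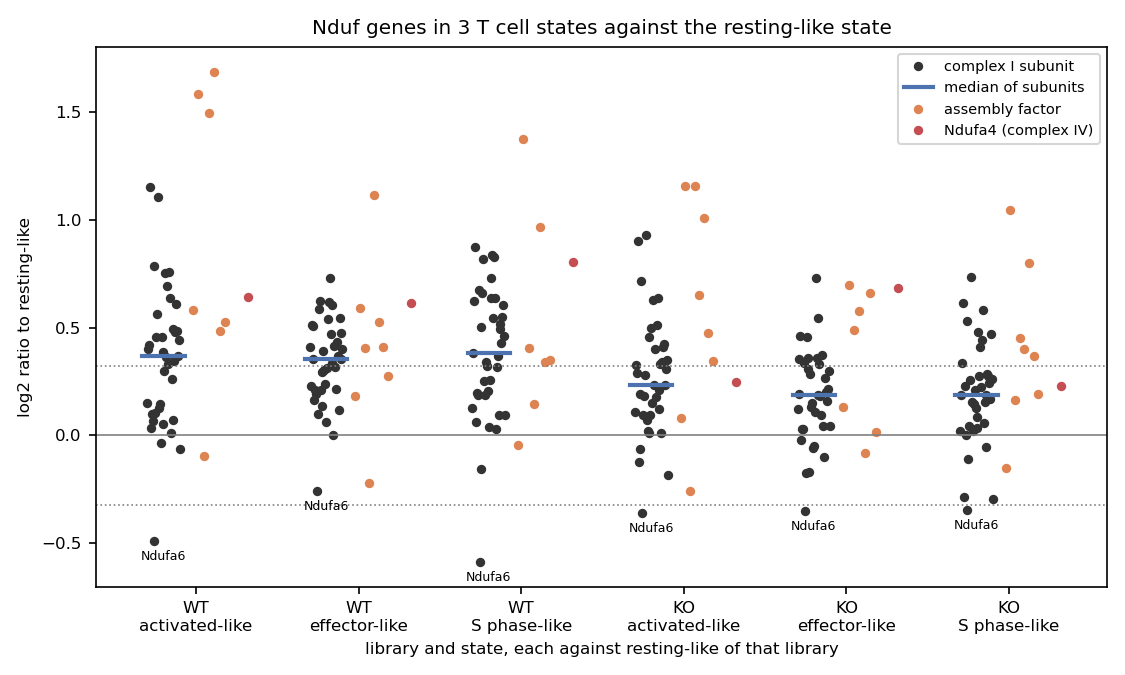
Log2 ratio of each Nduf gene with at least 200 UMIs in activated-like, effector-like and S phase-like cells to resting-like cells of the same library, for WT (left 3 groups) and KO (right 3 groups). Bars mark the median of the subunits and dotted lines the limits of 20% lower and 25% higher. The medians lie between 0.36 and 0.38 in WT and between 0.19 and 0.24 in KO, Ndufa6 is the lowest subunit in all 6 groups, and Ndufaf6, Ndufaf2 and Ndufaf4 stand at the top of the activated-like groups.

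The 7 complex I subunits encoded by the mitochondrial genome did not follow the nuclear-encoded ones. In KO they were at 0.962 (0.952 to 0.971) of WT in resting-like cells, where nuclear subunits were above 1, and at 1.09 (1.06 to 1.12) and 1.10 (1.09 to 1.12) in effector-like and S phase-like cells, where nuclear subunits were below 1. In activated-like cells the ratio was 0.978 and moved to either side of 1 with the scaling. In resting-like cells the median log2 ratio of the 7 was -0.07, near the -0.06 over all genes. Within WT they were lower in effector-like and S phase-like than in resting-like cells, at ratios of 0.888 (0.880 to 0.898) and 0.879 (0.869 to 0.890), and slightly higher in activated-like cells, at 1.06. The members differed among themselves. In resting-like cells mt-Nd4l, mt-Nd5 and mt-Nd6 were lower by 20% in KO, at log2 ratios of -0.50, -0.64 and -0.95. Of all genes 21.1% were lower by that limit. There mt-Nd2 and mt-Nd3 were at -0.07 and -0.05, and mt-Nd1 and mt-Nd4 at 0.05 and 0.06. In activated-like cells 3 of the 7 were lower by 20%, where 20.5% of all genes were. In S phase-like cells mt-Nd1, mt-Nd2, mt-Nd3 and mt-Nd4 were above 1, at 0.29, 0.15, 0.12 and 0.17, while mt-Nd4l, mt-Nd5 and mt-Nd6 were lower by 20% in KO, at -0.33, -0.51 and -0.64, where 15.0% of all genes were. In effector-like cells mt-Nd5 was lower by 20%, at -0.45, and mt-Nd1 was highest, at 0.21. The limit of 5% mitochondrial UMIs bears directly on these genes, and what part it had in the values was not tested.

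Other nuclear-encoded parts of the chain were also above 1 in resting-like cells. Complex II (4 genes) gave a summed KO to WT ratio of 1.16 (1.11 to 1.21), complex III (9 genes) 1.14 (1.12 to 1.16), complex IV (11 genes, Ndufa4 not counted) 1.05 (1.04 to 1.06) and complex V (17 genes) 1.11 (1.10 to 1.12). The median log2 ratios of these lists were 0.20, 0.22, 0.10 and 0.17. Higher by 25% were 2, 3, 2 and 2 genes, and lower by 20% were 0, 0, 1 and 1, where 8.0% and 21.1% of all genes were, the last being Cox7a2l, which helps respiratory complexes to associate, at -0.42 and Atp5l, a subunit of ATP synthase, at -0.37. In S phase-like cells complex IV was at 0.865 (0.856 to 0.874), complex V at 0.920 (0.912 to 0.928) and complex III at 0.948 (0.933 to 0.963), with medians of -0.19, -0.13 and -0.01, while complex II was at 1.01 and changed side with the scaling. The 10 assembly factors of complex I without the Nduf name, such as Acad9 and Ecsit, gave 0.961 (0.912 to 1.01) in resting-like cells and 0.972 (0.906 to 1.04) in activated-like cells, where the scaling moved the ratio between 0.946 and 1.01. In resting-like cells Acad9 was lowest at -0.26 and Ecsit highest at 0.22.

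**Figure D5:**
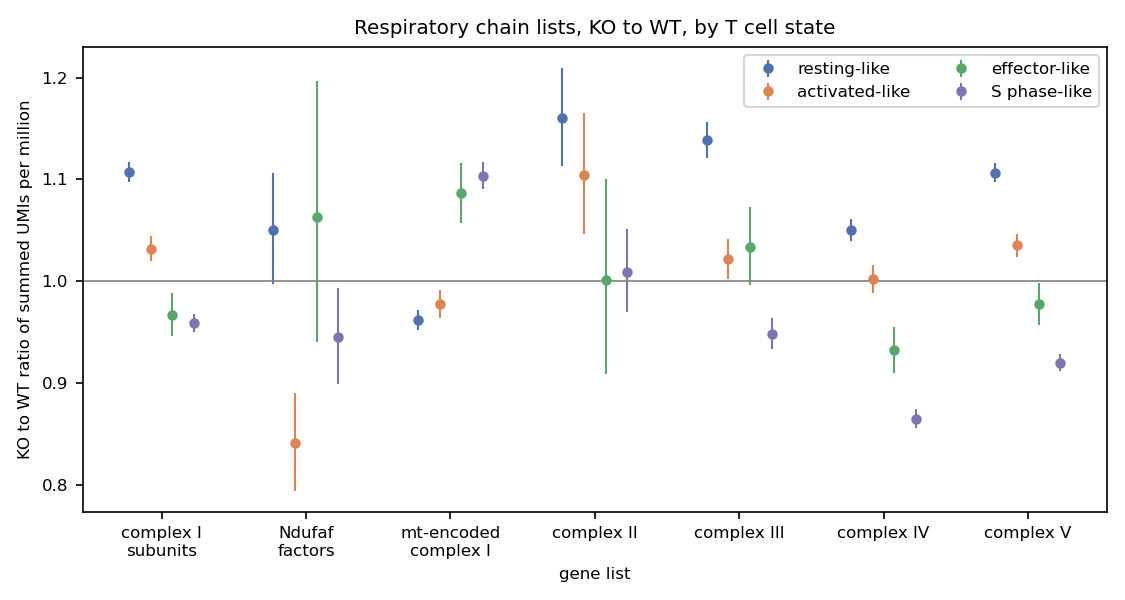
KO to WT ratio of summed CPM for nuclear-encoded complex I subunits, Ndufaf assembly factors, mitochondrially encoded complex I subunits and complexes II to V, in the 4 T cell states, with 95% counting intervals. Nuclear-encoded complex I lies at 1.11 in resting-like and 0.959 in S phase-like cells, the mitochondrially encoded genes at 0.962 and 1.10.

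Outside these 4 states the subunit level differed between cell classes. Neutrophil-like barcodes had the lowest sum, 4280 CPM in WT and 4459 CPM in KO, with granule genes at 30.0% and 25.9% of their UMIs. Cluster 8, a T lineage cluster led by the heat shock genes Hspa1a and Hspa1b, had 5435 and 5807 CPM. Erythroid-like barcodes had 7959 CPM in WT and 6074 CPM in KO, a ratio of 0.763 (0.747 to 0.779). Of their 36 subunits with at least 200 UMIs 24 were lower by 20%, where 51.8% of all genes were, and 0 higher by 25%, where 7.22% were. The median log2 ratio of these subunits was -0.39 against -0.33 over all genes, beside the haemoglobin shares given above, whose part in it was not tested. B cell-like barcodes had 6108 and 6396 CPM, and cluster 11 had 8270 and 8487 CPM, a ratio of 1.03 (1.00 to 1.05) in which 0 of 36 subunits with at least 200 UMIs passed either limit, where 10.5% of all genes were lower and 6.38% higher. Cluster 2 held 4532 of the KO and 182 of the WT barcodes, had a median of 1428 UMIs in KO and haemoglobin at 1.15% of UMIs, and its subunits stood at 8405 CPM in KO, 1.14 times (1.13 to 1.15) the level of KO resting-like cells. Cluster 6 held 908 WT and 83 KO barcodes, with a median of 672 UMIs in WT, and its WT subunits stood at 8161 CPM. What part depth and RNA of other cells had in these levels was not tested.

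Ndufa4l2, a paralog of Ndufa4 known to be induced by low oxygen, had 1 UMI in each library, so that neither its level nor a difference was detectable at this depth. Ndufb1-ps carries the symbol of a pseudogene in the files and is annotated as a noncoding RNA in GENCODE M21, but was counted at 35226 UMIs over both libraries and was treated as a subunit. Ndufb4 has close copies in the mouse genome, and how reads shared with them were counted is not given in the sources used here. All 47 members matched the annotation, and none shared exonic sequence on its strand with another counted gene.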

How the data were processed

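The authors deposited unnormalised counts of UMIs for each of 2 libraries. The submitters' processing notes name Cell Ranger 5.0.1 and mm10. Barcodes needed 300 or more genes and no more than 5% mitochondrial UMIs. Scrublet scores (scanpy 1.11.5) were computed but removed no barcode in the main values. The 2000 most variable genes, without Nduf, respiratory, mitochondrial, haemoglobin and marker genes, were reduced to 30 principal components, and Leiden clustering (igraph 0.11.9, resolution 0.5) of the graph of 20 neighbours gave 14 clusters. UMIs were summed per library and state and scaled to CPM over all genes. Levels have exact Poisson intervals and ratios exact conditional binomial intervals (scipy 1.17.1). Members with at least 200 UMIs over both sides were compared, with 0.5 added to each count on the log2 scale, and a ratio 25% higher or 20% lower marked a difference. The interval code was tested on simulated data.

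The members and gene lists were chosen with earlier results of these data known. Named in resting-like cells were Ndufa4 and the 5 members with the highest and 5 with the lowest ratio, in other comparisons Ndufa4 and the 3 highest and 3 lowest, with the core subunits and each pathway list's lowest and highest gene. Other members named, such as the runners-up of a group, were chosen after their values were seen. Alternatives covered doublets, the mitochondrial limit, scaling, thinning, clustering, the UMI minimum and the fold, and, chosen after seeing the data, removal of barcodes found in both libraries. Promoter windows came from RefSeq. DNA coordinates are GRCm38. One member and one marker were counted in the lists and are not reported by name here.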

Additional observations from a re-analysis of the deposited data

Results flagged for a closer look

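The KO to WT ratio of the summed complex I subunits lay above 1 in resting-like (1.11) and activated-like cells (1.03) and below 1 in effector-like (0.967) and S phase-like cells (0.959), with each interval on its own side of 1. The states of 1 library are not replicates, and with 1 library per genotype the difference between states was not tested. The median depth of S phase-like barcodes was 14356.5 UMIs in WT and 8558.5 in KO, that of resting-like barcodes 4220.5 and 3745.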

How the results depend on the processing

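No paired analysis was possible because there was 1 library per genotype, and for the same reason no replicate could be left out. The summed subunit ratios and the Ndufa4 ratio kept their side of 1 under each alternative tried, and the assembly factor ratio of resting-like cells changed side with thinning. Values that left the counting interval follow. Scaling by the median of gene ratios gave KO to WT subunit ratios of 1.15 in resting-like, 1.08 in activated-like and 0.942 in S phase-like cells, and ratios to resting-like of 1.29 (WT activated-like), 1.23 (KO activated-like), 1.34 (WT S phase-like) and 1.13 (KO S phase-like). Scaling without mitochondrial, ribosomal protein, haemoglobin and granule genes gave 1.06 in activated-like and 0.974 in S phase-like cells for KO to WT, and to resting-like 1.20 (WT effector-like), 1.18 (KO activated-like), 1.19 (WT S phase-like) and 1.04 (KO S phase-like). Thinning to 1000 UMIs gave KO to WT subunit ratios of 0.925 in effector-like and 0.978 in S phase-like cells, assembly factor ratios of 0.975 in resting-like and 0.966 in activated-like cells, 0.477 for Ndufa4, and ratios to resting-like of 1.252 (WT effector-like), 1.15 (KO activated-like), 1.26 (WT S phase-like) and 1.11 (KO S phase-like). The mean of single-barcode CPM gave 0.973 in S phase-like cells for KO to WT, and 1.24, 1.23 and 1.26 for effector-like, activated-like and S phase-like to resting-like cells of WT. Without the mitochondrial limit the WT effector-like ratio was 1.28 and the KO activated-like ratio 1.18. At a Leiden resolution of 1 the resting-like KO to WT ratio was 1.09 and the WT ratios to resting-like 1.252 (effector-like), 1.21 (activated-like) and 1.26 (S phase-like).

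The single subunit higher by 25% in resting-like cells, Ndufa9, sits at the limit: the count was 0 without top doublet scores, without the mitochondrial limit, at the other resolution, without shared barcodes and at a fold of 1.5, 2 and 3 under the gene-set and median scalings, and 4 with thinning, which also gave 1 subunit lower. The 4 assembly factors lower in activated-like cells became 2 with the mean of single-barcode CPM, 0 with thinning, which leaves fewer members at 200 UMIs, and 1 at a fold of 1.5. At that fold 5 subunits were higher in WT effector-like and 5 in KO activated-like than in resting-like cells. Of all genes 1.96% were higher in resting-like and 6.10% lower in activated-like cells of KO at a fold of 1.5, and 11.1% were higher in WT effector-like and 15.5% in KO activated-like than in resting-like cells. Of 584 values of single members 521 stayed within the counting interval of the main value. On the other side of 1 lay 15 values of 8 results. For 2 of the 15 the main value had passed the limit: Ndufaf3 in effector-like cells (0.982 with the mean of single-barcode CPM) and Ndufaf2 in KO effector-like to resting-like cells (0.536 with thinning). The others came from Ndufa10, Ndufaf4 and Ndufaf1 in resting-like KO to WT, Ndufs1 and Ndufaf1 in WT effector-like and S phase-like to resting-like, and Ndufv3 in KO activated-like to resting-like cells, whose main ratios had not passed it. The causes were not tested. The KO effector-like state, with 138 barcodes, and the assembly factors, with few UMIs, limit what can be resolved.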

Other observations

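Barcodes above the mitochondrial limit, which no comparison uses, were placed in states by their nearest kept neighbours. In the 616 WT and 1109 KO such barcodes nearest to resting-like cells Ndufa4 was at 251 and 112 CPM, a ratio of 0.446 (0.381 to 0.521), and the complex I subunits at 5758 and 6073 CPM, a ratio of 1.05 (1.03 to 1.08). They come from the same 2 libraries and are no replicate.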
